A study of Mus musculus with 6 samples.

Results

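The Wnt ligands, their Frizzled receptors and the secreted Wnt modulators of the Sfrp, Dkk and Rspo families were followed in C2C12 myotubes, muscle fibres grown in culture from a mouse myoblast line. Members were every gene whose symbol is a numbered Wnt, Fzd, Sfrp, Dkk or Rspo, which gave 41 genes of the 55401 in the table, namely 19 Wnt, 10 Fzd, 4 Sfrp, 4 Dkk and 4 Rspo genes. One group of 3 cultures received siRNA targeting SENP7, a protease that strips the small modifier SUMO from proteins, and the other group of 3 received the GL2 siRNA, directed against firefly luciferase, which mouse cells do not carry. All 6 cultures were kept in DMEM with 2% horse serum and antibiotics and were treated with 100 pmol of siRNA for 3 days, and the submitters call the 3 cultures of each group biological replicates. Every library therefore came from siRNA-treated cells of a single cell line, with 1 siRNA treatment per arm, and no untreated culture stood beside them. Polyadenylated RNA was sequenced, and values are the authors' normalized counts, in which 1 unit is about 1 read.

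Wnt proteins are lipid-bearing signals that the acyltransferase Porcn modifies and the carrier Wls brings to the cell surface. They bind Frizzled receptors, alone or with the co-receptors Lrp5 and Lrp6. With the co-receptors they stabilise β-catenin, which acts with TCF/LEF factors on target genes, and without it they can act through cell polarity or calcium. Sfrp proteins bind Wnts outside the cell, Dkk proteins bind the Lrp co-receptors, and R-spondins bind Lgr receptors and the ligases Znrf3 and Rnf43, which keeps Frizzleds at the surface. In muscle the pathway is known for its part in satellite cell renewal and in the differentiation and fusion of myoblasts.

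The libraries held between 25223218 and 30865945 reads. Senp7 itself had 607.2 ± 46.9 normalized counts in control and 300.3 ± 40.2 in SENP7 siRNA libraries (SD, n = 3), a log2 change of -1.02 with an adjusted p of 0.000428 (limma, Benjamini-Hochberg over all genes tested). Transcripts of differentiated muscle were abundant in all 6 libraries, where the summed count of 10 markers was 599704 to 637872 in control and 678184 to 753597 in SENP7 siRNA libraries. Control replicate 3 stood apart from the other 2 controls: 3062 genes passed the test with all libraries and 4702 without it.

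Among the 23 members abundant enough to test, 6 passed at an adjusted p under 0.05. Fzd4, a receptor for Wnts and for the eye growth factor Norrin, rose 3.31-fold after SENP7 siRNA, Fzd5 rose 1.51-fold, and the ligand Wnt9a rose 1.14-fold. Rspo1, a secreted R-spondin, fell to 0.338 of its control level, Dkk2, a ligand of the Lrp co-receptors, fell to 0.374, and Wnt10a, the most abundant Wnt transcript per kb in control myotubes, fell to 0.786. The share called, 26.1% of the tested members, stood beside 20.9% of all 14668 genes tested, so the families as a whole did not stand far from the background. In each direction 13% of the members passed, beside 10.2% of all genes for higher and 10.7% for lower. Without control replicate 3, 5 members were higher and 4 lower, while 4702 of all 14668 genes passed in place of 3062. The larger number of members called thus came with a larger number over all genes. The median log2 change was 0.05 over the members and -0.0025 over all genes tested, and the median absolute change was 0.21 and 0.17.

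Of the 41 members, 8 had no read in any library: Wnt2, Wnt3a, Wnt7a, Wnt8a, Wnt9b, Fzd10, Dkk4 and Rspo4. A count of 0 allows up to 3 reads, or 2.66 to 3.34 normalized counts by library. A further 10 members had reads but did not reach a normalized count of 10 in 3 libraries: Wnt1, Wnt2b, Wnt3, Wnt5a, Wnt8b, Wnt16, Sfrp5, Dkk1, Rspo2 and Rspo3. The 23 tested were 8 Wnt, 9 Fzd, 3 Sfrp and 2 Dkk genes and 1 Rspo gene. Ligands and secreted modulators thus held 17 of the 18 members that were silent or low, and all Frizzleds other than Fzd10 were tested.

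Levels of different genes were compared as normalized counts per kb of exon, with the deposited exon lengths. In control libraries the Wnt order was led by Wnt10a at 787 ± 37.6 and Wnt9a at 577 ± 23.4 per kb (SD, n = 3), which did not overlap. Wnt10b (105 ± 25) and Wnt4 (88.3 ± 24.1) overlapped each other, followed by Wnt11 at 33.3, Wnt6 at 18, Wnt7b at 12.3 and Wnt5b at 5.84 per kb. Wnt5a, Wnt1, Wnt3, Wnt16, Wnt2b and Wnt8b all lay under 1 per kb and overlapped their neighbours. Among receptors Fzd1 (985 ± 166) and Fzd2 (840 ± 26.9) overlapped, Fzd7 followed at 618 ± 28.0, and the remaining 6 lay between 61.2 and 14.1 per kb, with Fzd4 the lowest. Sfrp2 led its family at 333 ± 267 per kb and Dkk3 led its own at 68.4 ± 4.23.

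**Figure D1:**
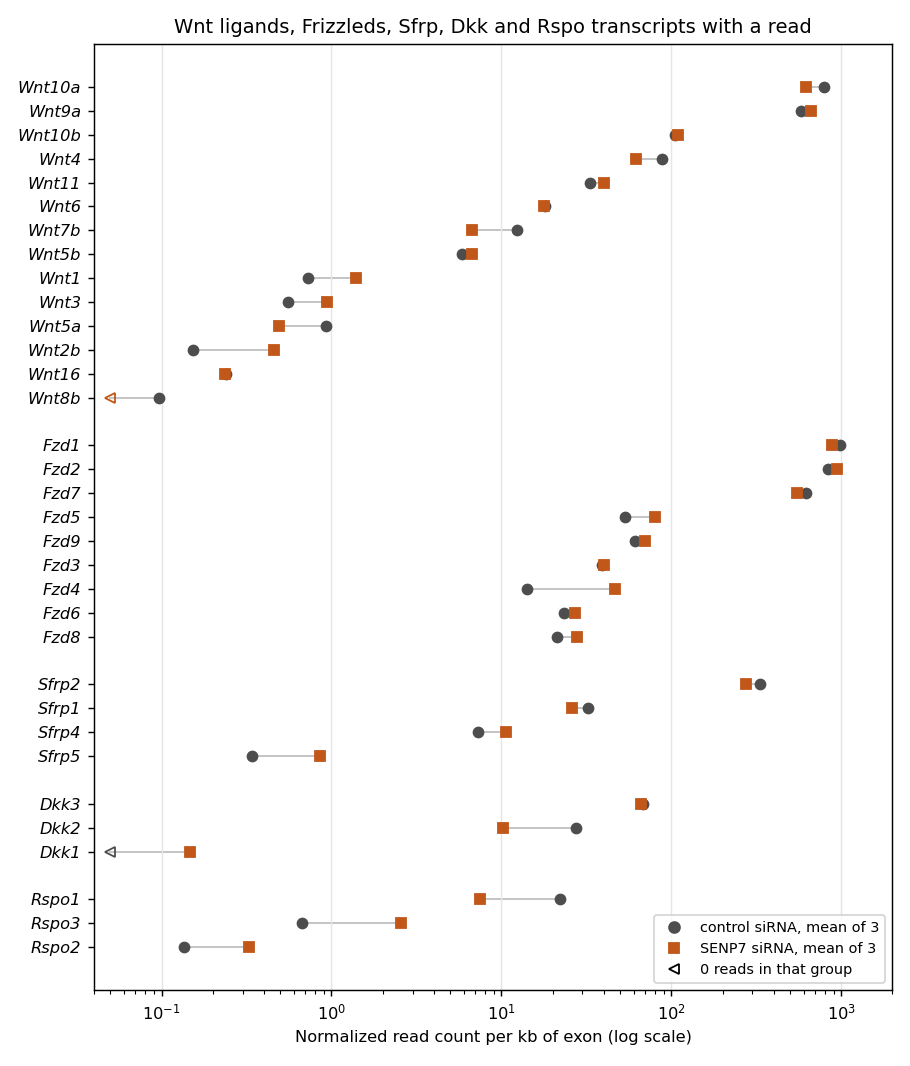
Mean normalized read count per kb of exon (log axis) of the 33 members with a read, by family, in control (grey circles) and SENP7 siRNA (orange squares) libraries, n = 3 each; open triangles at the left edge mark a group with 0 reads, and no error is drawn. Wnt10a, Wnt9a, Fzd1, Fzd2, Fzd7 and Sfrp2 lie well above the other members of their families in both groups. Among the tested members the widest gaps are those of Fzd4, Dkk2 and Rspo1.

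The promoters of the 4 members that passed with the largest fold changes are shown here, so that the upstream sequence of the receptors that rose can be set beside that of the secreted modulators that fell. Each is the 250 bases before the RefSeq start of the gene (GRCm38.p6), read 5′ to 3′ on the gene's strand. Capitals mark matches on either strand to the TCF/LEF core (CTTTGA or CTTTGT), to E-boxes (CAGCTG or CACCTG), to the GC box (GGGCGG) or to the TATA box (TATAAA), and matches may overlap or touch. The motifs were chosen after the values had been seen. Of the 6 members that passed, 5 were in the RefSeq table and Wnt10a was not. Fzd4 lies at chr7:89404116-89404365 on the plus strand, Fzd5 at chr1:64737751-64738000 on the minus strand, Dkk2 at chr3:132085042-132085291 on the plus strand and Rspo1 at chr4:124986180-124986429 on the plus strand.
Fzd4: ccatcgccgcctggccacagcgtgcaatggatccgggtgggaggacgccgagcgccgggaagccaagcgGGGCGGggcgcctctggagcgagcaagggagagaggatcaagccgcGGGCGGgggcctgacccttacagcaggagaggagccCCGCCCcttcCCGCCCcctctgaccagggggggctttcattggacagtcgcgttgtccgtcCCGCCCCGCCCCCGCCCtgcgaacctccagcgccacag
Fzd5: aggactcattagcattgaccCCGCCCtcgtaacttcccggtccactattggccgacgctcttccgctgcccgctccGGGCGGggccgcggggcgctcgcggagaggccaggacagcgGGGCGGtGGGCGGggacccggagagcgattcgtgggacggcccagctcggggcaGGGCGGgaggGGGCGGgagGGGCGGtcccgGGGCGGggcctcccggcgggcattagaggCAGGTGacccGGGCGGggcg
Dkk2: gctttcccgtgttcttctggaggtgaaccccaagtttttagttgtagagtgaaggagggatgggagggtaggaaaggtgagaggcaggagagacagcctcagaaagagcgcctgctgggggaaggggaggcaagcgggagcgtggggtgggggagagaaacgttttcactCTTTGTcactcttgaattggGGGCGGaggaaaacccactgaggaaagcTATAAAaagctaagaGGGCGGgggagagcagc
Rspo1: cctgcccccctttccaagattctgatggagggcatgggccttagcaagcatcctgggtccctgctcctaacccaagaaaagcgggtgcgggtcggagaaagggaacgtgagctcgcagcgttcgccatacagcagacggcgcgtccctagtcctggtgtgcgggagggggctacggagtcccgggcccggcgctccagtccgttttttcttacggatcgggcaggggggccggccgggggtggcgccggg

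Both receptor windows were rich in G and C, with 72.8% in Fzd4 and 76.4% in Fzd5, where the median of 32851 mouse promoters was 52.4% (quartiles 45.2% and 61.2%). They held 7 and 9 GC boxes, a motif found at least once in 32.7% of all promoters, and Fzd5 held 1 CACCTG, found in 17.2%. The Dkk2 window was less rich, at 55.6%, and held 2 GC boxes, 1 CTTTGT (in 16.5% of promoters) and 1 TATAAA (in 12.4%) that ended 26 bases before the start. The Rspo1 window, at 66.8%, held no match. CTTTGA, found in 13.8% of promoters, and CAGCTG, found in 13%, were in none of the 4 windows. A match describes the letters in the window and not a bound site.

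Wnt10a (chr1:74791516-74804179, plus strand), a ligand known from tooth and skin appendage development, had 2042, 1924 and 1859 normalized counts in the control libraries, in the order of their replicate numbers as in all such lists here, and 1606, 1614 and 1356 in the SENP7 siRNA libraries. Every SENP7 siRNA library lay below every control. The log2 change was -0.35 ± 0.08 (SE; adjusted p = 0.0148, limma), and the adjusted p was 0.0614 when control replicate 2 was left out.

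Wnt9a (chr11:59306928-59333552, plus strand), a ligand known from joint formation, had 1948, 1835 and 1983 counts in control and 2158, 2157 and 2283 in SENP7 siRNA libraries. The groups did not overlap, and the difference was small: 0.19 ± 0.06 on the log2 scale (adjusted p = 0.044, limma). The call was lost when control replicate 1 (adjusted p = 0.0608), control replicate 2 (0.162) or SENP7 replicate 1, 2 or 3 (0.119, 0.118 and 0.128) was left out, and with no filter on low values (0.0949).

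Since 1 of the leading ligands fell and the other rose, the make-up of the Wnt transcripts was compared per kb. Wnt10a took 50.2%, 49.4% and 45.2% of the family's counts per kb in the control libraries and 42.1%, 42.5% and 36.8% after SENP7 siRNA. Wnt9a took 35.5%, 35.0% and 35.8% in control and 42.0%, 42.1% and 46.0% after SENP7 siRNA. Neither share overlapped between the groups. The ratio of Wnt10a to Wnt9a was 1.41, 1.41 and 1.26 in control and 1.00, 1.01 and 0.801 in SENP7 siRNA libraries, so Wnt10a led in all 3 control libraries, the genes were about equal in SENP7 replicates 1 and 2, and Wnt9a led in SENP7 replicate 3. Together they held 81.0% to 85.8% of the family's counts per kb in control and 82.8% to 84.5% in SENP7 siRNA libraries, ranges that overlap. These shares are descriptions with no test of their own.

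**Figure D2:**
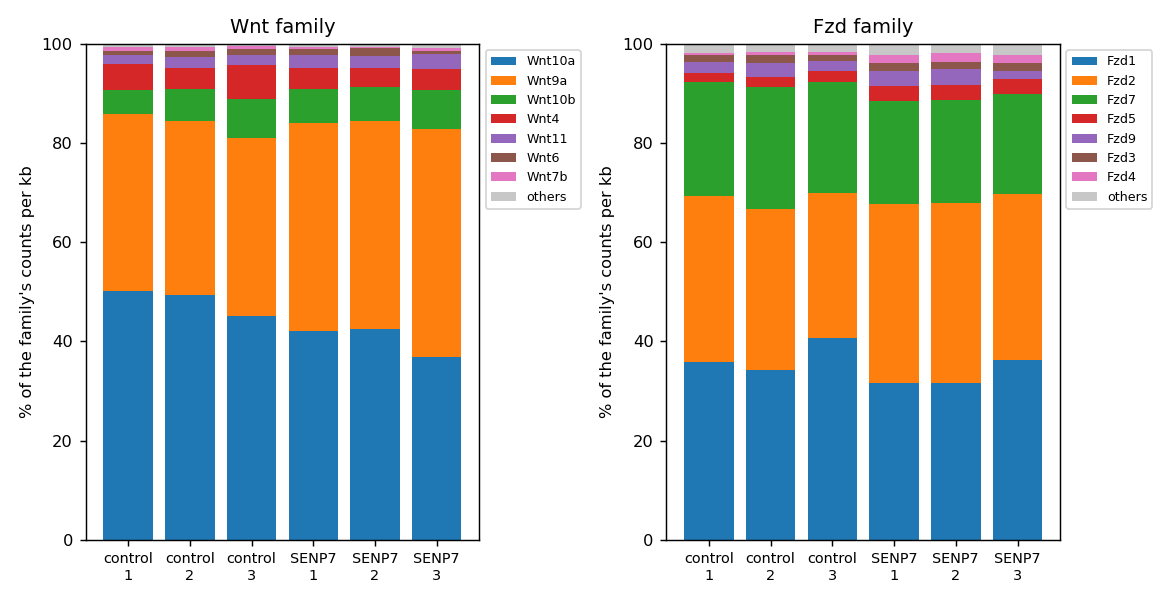
Share of each gene in its family's summed counts per kb (percent, stacked to 100) in each of the 6 libraries, for Wnt genes at left and Fzd genes at right; the 7 leading genes are coloured and the rest pooled as others. Wnt10a and Wnt9a fill over 80% of every Wnt bar, with the boundary between them lower in the 3 SENP7 siRNA libraries.

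The other 6 tested Wnt genes did not pass. Wnt7b, which acts in lung and kidney development, had 73.58, 66.75 and 39.88 counts in control and 35.49, 25.68 and 37.89 in SENP7 siRNA libraries, with a log2 difference of -0.82 (adjusted p = 0.0585, limma). Control replicate 3 was near the SENP7 siRNA values, and without it the log2 difference was -1.08 with an adjusted p of 0.00352. Without any 1 of the other libraries the adjusted p was 0.0824 to 0.194 (limma). Wnt4, which acts in kidney and reproductive tract development, had 355.8, 277 and 477.6 in control and 267.1, 240.7 and 270 in SENP7 siRNA libraries. The log2 difference of Wnt4 was -0.48 (adjusted p = 0.0844, limma). Its adjusted p ran from 0.0289 (without control replicate 2) to 0.228 (without SENP7 replicate 2). Wnt7b and Wnt4 both had groups that did not overlap, with the lowest control close to the highest SENP7 siRNA library. Wnt11, a ligand best known for cell movement through the polarity branch, had 124, 142.4 and 146.9 in control and 165, 157.3 and 177.1 in SENP7 siRNA libraries, a log2 difference of 0.27 (adjusted p = 0.133, limma) with no overlap.

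For 3 Wnt genes the groups overlapped. Wnt10b, which restrains fat cell formation and promotes bone, had 276.2, 350.5 and 445.5 in control and 360.2, 357.3 and 400.7 in SENP7 siRNA libraries, so the control libraries spread more widely than the groups differed (adjusted p = 0.736, limma). Wnt6 had 32.25, 42.28 and 43.77 in control and 42.59, 52.42 and 22.74 in SENP7 siRNA libraries, where replicate 3 was the lowest of all 6 (adjusted p = 0.890, limma). Wnt5b, a ligand of the branch without β-catenin, had 15.12, 17.8 and 13.62 in control and 19.52, 12.84 and 20.84 in SENP7 siRNA libraries (adjusted p = 0.716, limma). The 95% intervals of the log2 difference ran from -0.27 to 0.44 for Wnt10b, from -0.76 to 0.61 for Wnt6 and from -0.46 to 0.78 for Wnt5b, so sizeable differences in either direction were not excluded by these libraries.

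Of the Wnt genes below the filter, 3 had 10 or more reads over all libraries. Wnt5a, the best known ligand of the polarity and calcium branch, had 5, 8 and 8 reads in control and 4, 3 and 5 in SENP7 siRNA libraries, a depth-corrected ratio of 0.535 with a 95% interval from 0.24 to 1.14 (exact binomial, counting error only). Wnt1 had 5 reads in all control and 10 in all SENP7 siRNA libraries, a ratio of 1.87 (0.583 to 6.98). Wnt3 had 5 and 9, a ratio of 1.69 (0.507 to 6.4). All 3 intervals hold 1, so no difference was detectable at this depth. Wnt2b, Wnt8b and Wnt16 had fewer than 10 reads each.

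Fzd4 (chr7:89404355-89413134, plus strand) had 83.66, 106.8 and 94.35 counts in control and 313.2, 298.5 and 329.7 in SENP7 siRNA libraries. The lowest SENP7 siRNA library was far above the highest control, and the spread within each group was small beside the gap. The means were 94.94 ± 11.6 and 313.8 ± 15.6 (SD, n = 3), the log2 change was 1.72 ± 0.12 (SE), and the adjusted p was 5.6e-05 (limma). The call held in 16 of 16 alternative analyses, with log2 changes from 1.63 to 1.81. In the authors' deposited table the log2 fold change was 1.54 with an adjusted p of 5.61e-25. Fzd4 went from the lowest of the 9 detected Frizzleds per kb in control (14.1 ± 1.72) to the sixth in SENP7 siRNA libraries (46.7 ± 2.32), and from 0.535% to 1.75% of the family's counts per kb.

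Fzd5 (chr1:64730558-64737751, minus strand), a receptor known from eye and gut development, had 333.6, 350.5 and 417.3 counts in control and 558.1, 544.5 and 564.6 in SENP7 siRNA libraries. All 3 SENP7 siRNA libraries were close together and above every control. The means were 367.1 ± 44.3 and 555.7 ± 10.2 (SD, n = 3), with a log2 change of 0.60 ± 0.09 (SE; adjusted p = 0.00276, limma), and 16 of 16 alternatives made the same call. On the opposite strand Gm38058 overlaps 17.8% of the Fzd5 exon bases, and it had 2 reads over the 6 libraries. Fzd8, the receptor closest in sequence to Fzd5, had 134.1, 103.5 and 143 in control and 173.9, 147.6 and 175.3 in SENP7 siRNA libraries. Its groups did not overlap, and its log2 difference of 0.39 did not pass (adjusted p = 0.0976, limma). Leaving out 1 library gave an adjusted p from 0.0297 (control replicate 3) to 0.283 (control replicate 2).

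Fzd1, Fzd2 and Fzd7 form a closely related subfamily and were the abundant receptors. Fzd2 had 3161, 2968 and 3102 counts in control and 3511, 3480 and 3344 in SENP7 siRNA libraries. Its log2 difference was 0.16 (adjusted p = 0.0666, limma). With 1 library left out, its adjusted p ran from 0.0487 (without control replicate 3) to 0.228 (without SENP7 replicate 1). Fzd7, the Frizzled known from muscle satellite cells, had 2685, 2783 and 2937 in control and 2484, 2479 and 2479 in SENP7 siRNA libraries. Its log2 difference was -0.17 (adjusted p = 0.0558, limma), and the adjusted p ran from 0.0393 (without control replicate 1) to 0.172 (without SENP7 replicate 2). The groups of both genes did not overlap, Fzd2 on the higher side and Fzd7 on the lower side. Fzd1 had 3885, 3599 and 4924 in control and 3500, 3492 and 4144 in SENP7 siRNA libraries, which overlapped (adjusted p = 0.415, limma). Together the 3 held 91.3% to 92.4% of the Frizzled counts per kb in control and 88.5% to 89.8% in SENP7 siRNA libraries, so their joint share was lower in every SENP7 siRNA library, while the family's total per kb was 2656 ± 204 and 2665 ± 51.7 (SD, n = 3). For the Wnt family the total was 1629 ± 46.9 in control and 1525 ± 29.4 in SENP7 siRNA libraries.

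Of the remaining receptors, Fzd3 and Fzd6 are a related pair known from planar cell polarity. Fzd6 had 114.9, 103.5 and 120.6 in control and 131.3, 124.1 and 137.4 in SENP7 siRNA libraries, with no overlap and a log2 difference of 0.21 (adjusted p = 0.249, limma). Fzd3 had 463.6, 532.9 and 499 in control and 526.1, 493.2 and 522.9 in SENP7 siRNA libraries (adjusted p = 0.719, limma), so the 2 groups lay within each other's range. Fzd9 had 130, 161.3 and 129.4 in control and 179.2, 196.8 and 108 in SENP7 siRNA libraries, where replicate 3 was the lowest of all 6 (adjusted p = 0.640, limma). The Fzd family thus had 2 of 9 tested members called, both higher, or 22.2% beside 20.9% of all genes called, a share near the background, while Fzd7 was the one member with all SENP7 siRNA libraries below the controls.

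**Figure D3:**
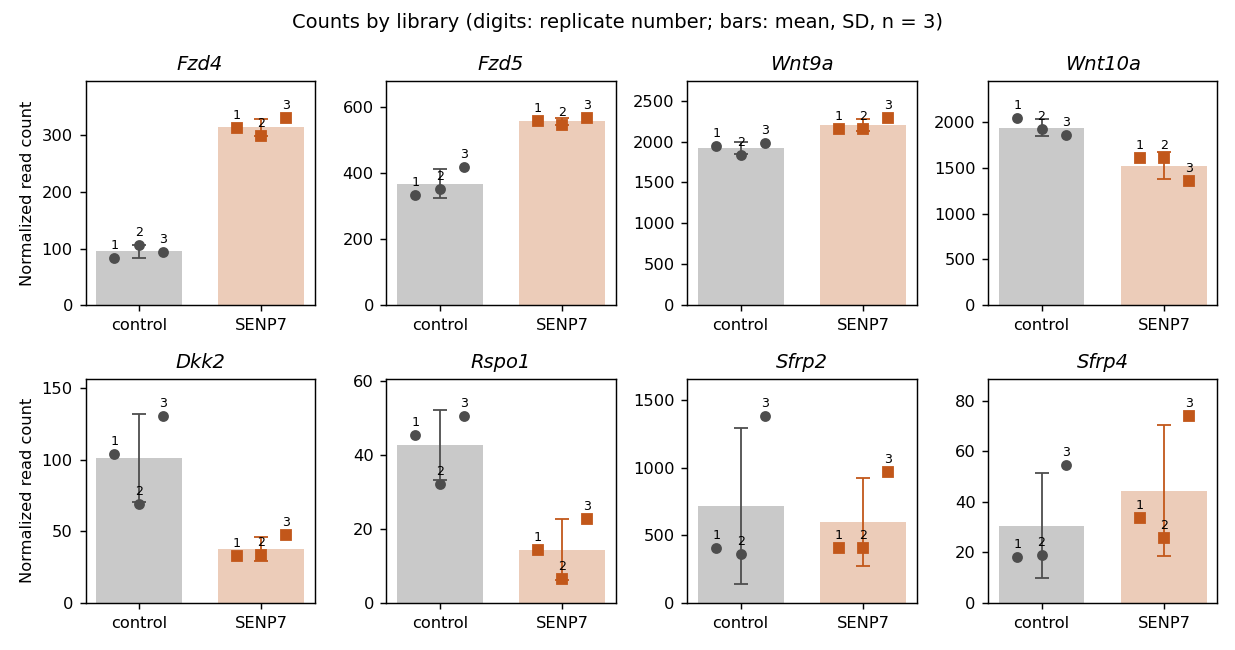
Normalized read counts of the 6 members that passed and of Sfrp2 and Sfrp4, in control (grey circles) and SENP7 siRNA (orange squares) libraries; bars are means from 0, error bars the SD over 3 libraries, and digits the replicate number. Points of the first 6 genes do not overlap between groups, while in Sfrp2 and Sfrp4 replicate 3 is the highest library of both groups.

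Among the antagonists, Dkk2 (chr3:132085292-132180304, plus strand), which binds Lrp5 and Lrp6, had 103.8, 68.98 and 130.3 counts in control and 32.83, 33.16 and 47.37 in SENP7 siRNA libraries. All SENP7 siRNA libraries were below the lowest control, and replicate 3 was the highest in each group. The means were 101 ± 30.8 and 37.79 ± 8.30 (SD, n = 3), with a log2 change of -1.37 ± 0.25 (SE; adjusted p = 0.00605, limma), and the call held in 16 of 16 alternatives. Dkk3, a divergent relative, had 224.8, 245.9 and 218.9 in control and 229.8, 210.8 and 223.6 in SENP7 siRNA libraries. Its log2 difference was -0.05, with a 95% interval from -0.27 to 0.16 (adjusted p = 0.735, limma). Dkk1 had 1 read in all.

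The Sfrp genes, whose products bind Wnts directly, had 0 of 3 tested members called by limma, beside 20.9% of all genes, and 0 at an unadjusted p under 0.05. By edgeR or DESeq2 none was called either. Sfrp2 had 407.2, 363.8 and 1380 counts in control and 406.4, 408.7 and 970 in SENP7 siRNA libraries. Sfrp4 had 18.14, 18.91 and 54.47 in control and 33.72, 25.68 and 73.89 in SENP7 siRNA libraries. In both genes replicate 3 was by far the highest library of its group: against the mean of replicates 1 and 2 it was 3.58-fold in control and 2.38-fold in SENP7 siRNA libraries for Sfrp2, and 2.94-fold and 2.49-fold for Sfrp4. Of all genes tested, 36 (0.245%) were more than 2-fold higher in replicate 3 of both groups. Within replicate numbers the ratio of SENP7 siRNA to control was 0.998, 1.12 and 0.703 for Sfrp2 and 1.86, 1.36 and 1.36 for Sfrp4. The adjusted p was 0.897 for Sfrp2 and 0.442 for Sfrp4 (limma), with 95% intervals of the log2 difference from -1.25 to 1.02 and from -0.52 to 1.66.

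Sfrp1 had 148.2, 132.4 and 144 counts in control and 102, 89.86 and 151.6 in SENP7 siRNA libraries. SENP7 replicates 1 and 2 were below all controls and replicate 3 above them. The log2 difference was -0.34 (adjusted p = 0.239, limma), and without SENP7 replicate 3 it was -0.56 with an adjusted p of 0.0334. Without any 1 of the other libraries the adjusted p was 0.252 to 0.578 (limma). Sfrp5 had 7 reads in all.

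Rspo1 (chr4:124986430-125009099, plus strand), which binds Lgr receptors, had 45.36, 32.26 and 50.58 counts in control and 14.2, 6.419 and 22.74 in SENP7 siRNA libraries. The groups did not overlap, and the counts rest on 126 reads in control and 46 in SENP7 siRNA libraries. The log2 change was -1.63 ± 0.40 (SE; adjusted p = 0.021, limma). The adjusted p was 0.0657 without control replicate 1, 0.0516 without control replicate 2 and 0.0584 without SENP7 replicate 1. Rspo3 was under the filter, with 2, 2 and 2 reads in control and 8, 11 and 5 in SENP7 siRNA libraries. Its depth-corrected ratio was 3.75 (95% interval 1.49 to 11.2, counting error only), in the direction opposite to Rspo1, and per kb it lay at 0.667 and 2.55 where Rspo1 lay at 22.1 and 7.46. An annotated gene on the opposite strand, Gm48159, overlaps 13.1% of the Rspo3 exon bases, and it had no read in any library. Rspo2 had 7 reads in all.

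Over the 23 tested members, 13 had groups that did not overlap, or 56.5%, beside 39.6% of all genes tested. Of these 13, 7 lay on the higher and 6 on the lower side, and 7 did not pass the test: Wnt4, Wnt7b, Wnt11, Fzd2, Fzd6, Fzd7 and Fzd8. In the authors' deposited DESeq2 values the adjusted p was under 0.05 for Fzd4, Fzd5, Dkk2, Wnt10a and Rspo1 and for no other member. Wnt9a had 0.0931 there. The share of all genes under 0.05 in those values is not given here, so nothing about the families as a set follows.

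**Figure D4:**
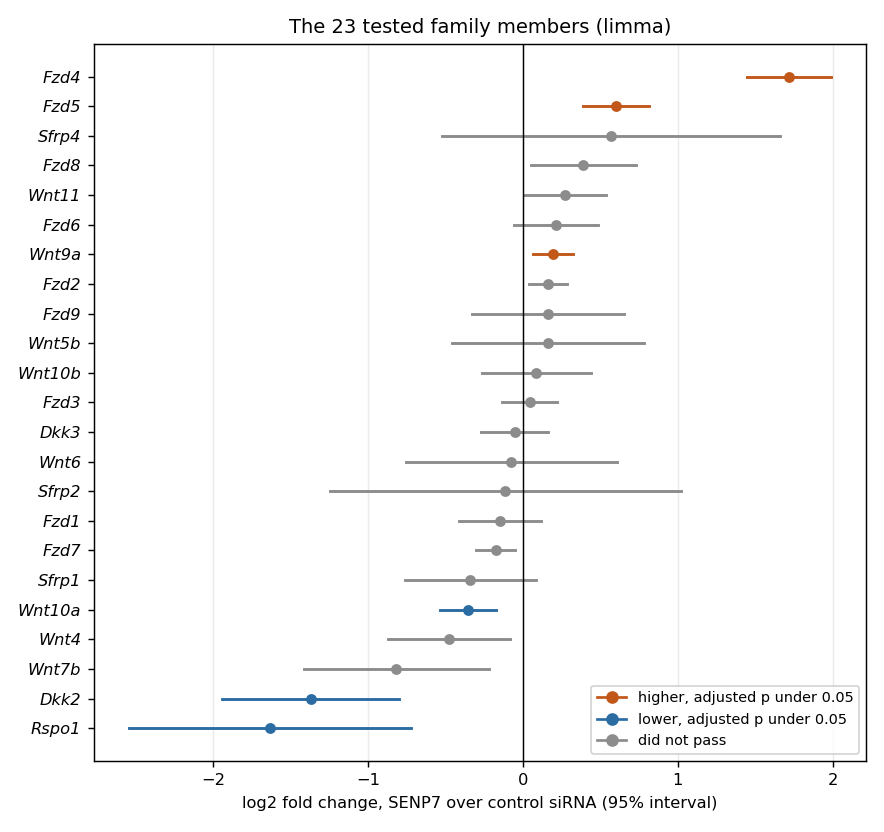
Log2 fold change (SENP7 siRNA libraries over controls) of the 23 tested members, sorted, with 95% intervals from limma that are not adjusted for the number of genes; colours mark an adjusted p under 0.05. Fzd4 (1.72) and Fzd5 (0.60) lie farthest to the right with short intervals, Rspo1 (-1.63) and Dkk2 (-1.37) farthest to the left, and Sfrp2 and Sfrp4 have the widest intervals around small or moderate differences.

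The rest of the pathway was read from 7 lists with 126 genes, of which 110 were tested. In all, 17 were higher and 21 lower, or 34.5% of those tested beside 20.9% of all genes, and 72 did not pass (limma). The lists were chosen with earlier results of these data known. The shares called, here and for each list below, are therefore descriptions and no test of an excess over all genes. The median log2 difference of the 110 was -0.07. With 1 library left out the counts ranged from 9 (without control replicate 2) and 11 (without SENP7 replicate 2) to 24 higher, and from 13 (without control replicate 2) to 26 lower. Of the 38 called genes, 19 kept the call with each of the 6 libraries left out. All 38 had groups that did not overlap, so leaving out 1 library could not change their direction.

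Co-receptors and surface regulators had 6 of 15 tested genes higher and 2 lower, or 53.3% called beside 20.9% of all genes (10.2% higher and 10.7% lower). Lrp5, the Wnt co-receptor, fell by 0.50 on the log2 scale (3243 to 2283 counts, adjusted p = 0.00348), and Tspan12, a partner of Fzd4, fell by 0.38 (2439 to 1877, adjusted p = 0.00239, both limma). Lrp6, chosen after its values were seen as the relative of Lrp5, had 2478 and 2512 counts and did not pass (adjusted p = 0.862, limma). The R-spondin receptors Lgr4 and Lgr6 rose by 0.49 and 0.87 on the log2 scale (adjusted p = 0.0038 and 0.0158, both limma). Kremen2, a receptor for Dkk proteins, had 4.055 and 20.1 counts (adjusted p = 0.00422, limma). Every control library of Kremen2 was under 10 counts, so it was tested only through its SENP7 siRNA libraries. With controls at that level a lower gene would not have been tested, so its place among the 6 higher genes rests on the filter. Adgra2, a receptor that works with Wnt7 ligands, rose by 0.35 (adjusted p = 0.0148, limma). Lgr5, chosen after its values were seen, had 433.7 ± 170 and 365.6 ± 45.5 counts (SD, n = 3) and did not pass (adjusted p = 0.603, limma). So 2 of the 3 R-spondin receptors rose in the libraries in which Rspo1 fell, and Tspan12 fell in those in which Fzd4 rose. Lgr6 lost its call without control replicate 1, 2 or 3 (adjusted p up to 0.0866), and Adgra2 without control replicate 2 or SENP7 replicate 1 or 2 (up to 0.075). The calls of Lrp5, Tspan12 and Lgr4 were kept with each library left out, as was that of Kremen2 with the limit given above.

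Ligand processing and secretion had 3 of 9 tested genes lower, beside 10.7% of all genes, and the other 6 did not pass. Porcn had 12230, 13182 and 9394 counts in control and 7355, 7127 and 7232 in SENP7 siRNA libraries, a log2 change of -0.67 (adjusted p = 0.00422, limma). Wls had 14123, 13391 and 12912 in control and 9647, 9834 and 10332 in SENP7 siRNA libraries, a log2 change of -0.44 (adjusted p = 0.0023, limma). Both groups were apart in each gene, and these are the 2 factors through which Wnt ligands pass on their way out of the cell. Tmed5, a cargo factor of the early secretory route, fell by 0.36 (adjusted p = 0.0145, limma; 0.0705 without control replicate 2 and 0.053 without SENP7 replicate 3), while Porcn and Wls kept their calls with each library left out. Of other secreted modulators 1 of 6 tested passed, or 16.7%, a share near the 20.9% of all genes. That gene was Cthrc1, a secreted protein that helps Wnts bind Frizzleds, which fell by 1.02 (63.01 to 29.89 counts, adjusted p = 0.00942, limma). Norrin (Ndp), the other ligand of Fzd4, had no read in any library.

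Cytoplasmic components had 1 of 28 tested genes higher and 3 lower, 14.3% beside the 20.9% of all genes. Amer1, which brings APC and Axin to the membrane, rose by 0.54 (adjusted p = 0.0318), and Dact2, Ctnnbip1 and Tnks2 fell by 0.82, 0.28 and 0.20 (adjusted p = 0.00733, 0.0302 and 0.0488, all limma). β-Catenin itself (Ctnnb1), chosen after its values were seen, had 16053 ± 119 and 14933 ± 542 counts (SD, n = 3) and did not pass (adjusted p = 0.281, limma). Of these 4 calls that of Dact2 was kept with each library left out, and those of Amer1, Ctnnbip1 and Tnks2 were lost without any 1 library other than control replicate 3 (adjusted p up to 0.117, 0.0975 and 0.178).

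Nuclear factors had 5 of 18 higher, beside 10.2% of all genes, and 2 lower, a share near the 10.7% of all genes. Tle1 and Tle4, co-repressors of TCF/LEF factors, rose by 0.52 and 0.50 and their relative Tle3 fell by 0.36 (adjusted p = 0.00122, 0.0126 and 0.00344). Tcf7l2 and the co-activator Crebbp rose by 0.35 each (adjusted p = 0.0102 and 0.0073), and Ctbp1 fell by 0.24 (adjusted p = 0.0425, all limma). Members of the Tle family therefore moved in both directions. Tcf7l2 lost its call without SENP7 replicate 2 (adjusted p = 0.0504), Tle4 without SENP7 replicate 1 (0.0651), and Ctbp1 without any 1 library other than control replicate 3 (up to 0.148).

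Genes known as targets or feedback genes of the pathway had 3 of 15 higher and 6 lower, or 60% called beside 20.9% of all genes (10.2% higher and 10.7% lower). Ccnd1, a cell cycle cyclin, had 1349, 1286 and 1210 counts in control and 560.7, 563.8 and 569.3 in SENP7 siRNA libraries, a log2 change of -1.18 (adjusted p = 1.85e-05, limma). Fosl1 fell by 1.31 (adjusted p = 0.00081), Tcf7 by 0.44 (0.00277) and Wisp1 by 0.30 (0.00729, all limma). Jun rose by 0.41 (adjusted p = 0.00143) and Wisp2 by 2.15 (0.0148, both limma). In Wisp2 control replicate 3 was apart at 500.9 counts, where the other controls had 126 and 117.9 and the SENP7 siRNA libraries 692.9, 776.7 and 1231. Its call was lost without control replicate 1 or 2 or SENP7 replicate 2 or 3 (adjusted p up to 0.0764), and that of Wisp1 without SENP7 replicate 2 (0.051). Axin2, the feedback gene most often read as a sign of β-catenin activity and chosen after its values were seen, had 417.3, 420.5 and 639.1 counts in control and 368.2, 346.6 and 431 in SENP7 siRNA libraries. Its groups overlapped, and its log2 difference of -0.34 did not pass (adjusted p = 0.177, limma). Myc and Lef1, also named after their values were seen, were the remaining lower genes of the list. They fell by 0.51 and 0.49 (adjusted p = 0.00762 and 0.0313, both limma). Lef1 lost its call without control replicate 1 or 2 or SENP7 replicate 2 or 3 (adjusted p up to 0.132), and Myc kept its call. Several of these genes answer to many other signals, so the list is not a readout of the Wnt pathway alone. The list was also chosen with earlier results of these data known, which limits what its share called can show.

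The polarity and calcium branch had 2 of 19 tested genes higher, a share near the 10.2% of all genes, and 4 lower, beside 10.7%. Daam2, a formin that binds Dishevelled, fell by 0.74 (4815 to 2883 counts, adjusted p = 0.000292), Vangl2 by 0.48 (0.0163) and Vangl1 by 0.28 (0.0319, all limma). Nfatc4 fell by 0.32 (adjusted p = 0.041), while Nfatc2 and Nfatc3, factors activated by calcium, rose by 0.91 and 0.45 (0.0128 and 0.00448, all limma). Both core polarity genes Vangl1 and Vangl2 were lower, and the NFAT genes went both ways. Daam2 and Nfatc3 kept their calls with each library left out. Vangl2 and Nfatc2 lost theirs without control replicate 2 (adjusted p = 0.0807 and 0.0639), Vangl1 without any 1 library other than control replicate 3 (up to 0.126), and Nfatc4 without control replicate 2 or 3 or SENP7 replicate 1 or 2 (up to 0.156).

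**Figure D5:**
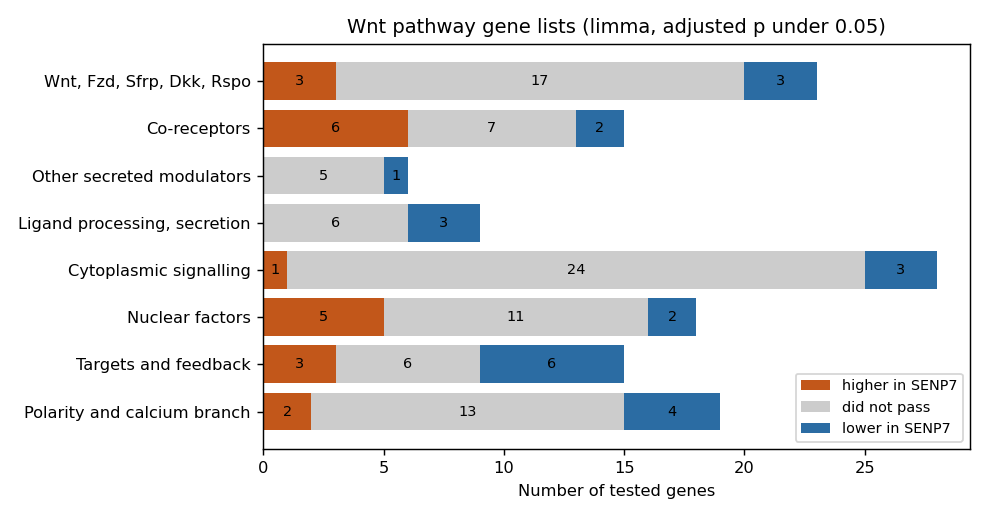
Number of tested genes in the 5 families and in each of the 7 pathway lists that were higher (orange), lower (blue) or did not pass (grey) in SENP7 siRNA libraries at an adjusted p under 0.05 (limma). Processing and secretion has 3 lower genes of 9, co-receptors have 6 higher and 2 lower, and the families themselves have 3 of each.

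Markers of other cell types were measured beside these results. The differentiated muscle list had 3 of 10 tested genes higher (Ckm, Myod1 and Mb), beside 10.2% of all genes. The summed count of the 6 fibroblast markers was 1243 to 1962 in control and 2305 to 2848 in SENP7 siRNA libraries, and none was at 0. Of the 5 tested, 3 were called higher (Dcn, Dpt and Col15a1, limma), beside 10.2% of all genes. Dcn, the marker with the highest counts, had means of 991.3 and 1984, while Pdgfra (280.5 and 253) and Pi16 (176.8 and 176.7) did not pass. Col15a1 (5.491 and 26.53) was under 10 in every control and was tested only through its SENP7 siRNA libraries. The 8 myoblast and cell cycle markers summed to 6913 to 9067 and 6498 to 8062, with 1 higher, Pax7, or 12.5%, a share near the 10.2% of all genes. The part of these differences in the changes of Fzd4, Fzd5, Dkk2 and Rspo1 was not tested, and in these bulk samples fewer cells of a type and less RNA per cell cannot be told apart. Adipocyte markers summed to 98.24 to 116.9 in control and 109.1 to 117.5 in SENP7 siRNA libraries with 5 of 6 under 10 counts everywhere, and 4 of 5 chondrocyte markers were as low, while Sox9 was lower after SENP7 siRNA (sums of 1093 to 1426 and 861.1 to 1027). Macrophage markers summed to 59.34 to 68.98 and 59.91 to 70.1 with Adgre1 at 0, and endothelial markers to 10.01 to 17.51 and 20.84 to 25.68. Itgam (6.87 and 14.82 counts) and Tek (5.445 and 14.25), the 1 endothelial marker tested, were called higher. Both were under 10 counts in every control, so they were tested only through their SENP7 siRNA libraries. Osteoblast markers summed to 1269 to 1418 and 1069 to 1340, with Ibsp at 0 and 4 tested, of which Alpl came nearest to passing (unadjusted p = 0.0122, adjusted p = 0.0557, limma).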

How the data were processed

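Each group had 3 directional poly(A) libraries, per the labels' protocols. The submitters' processing notes name the build GRCm38.p6 and, among tools, DESeq2, featureCounts 1.6.4, STAR 2.6.1d, Trim Galore 0.6.4 and bcl2fastq. How strand was treated in counting is not given in the sources used here. As a unit, the authors deposited a normalized signal per gene and library, which from the values is the read count divided by 1 factor per library, since 100% of values were whole reads within 0.1. Per the file headers the table also gives a log2 fold change, a Wald score and a p-value per gene.

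Because these were not raw counts, limma 3.58.1 (R 4.3.3, trend, robust) was run on log2(normalized count + 1), a scale that understates changes of low genes. Genes needed 10 or more in 3 libraries, and the group was the sole term. Tests were two-sided and adjusted by Benjamini-Hochberg over 14668 genes (threshold 0.05). Alternatives were edgeR 4.0.16, DESeq2 1.42.0 and voom on the recovered reads, other scalings, pseudocounts and filters, the replicate number as a block, and each library left out. The code was tested on simulated data. Members and lists were chosen with earlier results of these data known. Values are given for tested members, members under the filter with at least 10 reads, and called pathway genes with the 4 smallest adjusted p per list and direction; other names are marked, and 1 called gene is not reported here. Intervals for reads cover counting error only. Gene lengths are the deposited ones, positions matched GENCODE M21, and promoters are from RefSeq.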

Additional observations from a re-analysis of the deposited data

How the results depend on the processing

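Across 16 alternatives, 329 of 363 results for single members kept their direction and their side of the threshold, 10 no longer passed, 16 newly passed and 8 changed sign. None of the 6 called members changed sign, which their groups, with no overlap, fixed in advance for the runs with 1 library left out. Replicate numbers were shared by the groups, and the correlations of same-numbered libraries' deviations were 0.130, 0.0624 and 0.250. Replicate 3 of either group correlated negatively with replicates 1 and 2 of the other (-0.22, -0.10, -0.15 and -0.16). Deviations from a group's mean cancel within the group. Given the positive value for replicate 3 with replicate 3, these values had to be negative on balance and add nothing on pairing. Control replicate 1 correlated best with SENP7 replicate 2 (0.141). The main test did not take the numbers as pairs, and whether same-numbered libraries shared a preparation was not tested. With the replicate number as a block, 5 members were higher and 6 lower in place of 3 and 3, and 4175 genes passed in place of 3062. Fzd2, Fzd8, Fzd7, Wnt4 and Wnt7b then passed too. DESeq2 gave 5 lower members, with 3010 genes passing over all. Leaving out 1 library gave 2 to 5 higher members (5 without control replicate 3) and 2 to 4 lower, 9 to 24 higher pathway genes (17 with all libraries, 11 without SENP7 replicate 2) and 13 to 26 lower (21 with all), and 1619 to 4702 genes overall (4702 when control replicate 3 was left out, 1633 for control replicate 2, 1660 for SENP7 replicate 1 and 1619 for SENP7 replicate 2). The cause was not tested beyond the smaller number of libraries. Signs changed in 5 members that did not pass, here with their range over left-out libraries: Fzd3 (-0.0051 to 0.10), Fzd9 (-0.0034 to 0.43), Wnt10b (-0.086 to 0.26), Wnt6 (-0.32 to 0.27) and Sfrp2 (-0.53 to 0.50). Wnt6 was 0.0059 when control replicate 3 was left out, and Sfrp2 was 0.096 and 0.092 when SENP7 replicates 1 and 2 were. The shares of Wnt10a, Fzd1 and Fzd4 in their families were recomputed with each library left out. All 18 values stayed within 1 SD, which was fixed in advance, since with 3 libraries a group mean cannot move that far. They are therefore no test of stability. The Wnt10a share ran from 47.3% to 49.8% in control and from 39.5% to 42.3% in SENP7 siRNA libraries. Other shares were not rerun. Depth limits the 10 members under the filter and Rspo1, which rests on 172 reads.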

Other observations

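Of the Wnt genes, 4 pairs lie within 100 kb of each other. Wnt6 and Wnt10a are 6.19 kb apart on chromosome 1, with 18 and 787 counts per kb in control libraries. Wnt3a and Wnt9a are 16.2 kb apart on chromosome 11, with no read and 577 per kb. Wnt10b and Wnt1 are 11.7 kb apart on chromosome 15, with 105 and 0.726 per kb, and Wnt9b and Wnt3, 24.3 kb apart on chromosome 11, had no read and 0.554 per kb. Both leading ligands, Wnt10a and Wnt9a, therefore have a neighbouring Wnt gene that was silent or far lower in the same libraries.

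With no filter on low values, Rspo3 had a log2 difference of 1.46 and an adjusted p of 0.0434 (limma), from 6 reads in control and 24 in SENP7 siRNA libraries, and the authors' deposited table gave an adjusted p of 0.268.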
